A study of Caenorhabditis elegans with 2 samples.

Results

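Peak lists give 1 line per summit, the base at which the signal of a bound stretch is highest, and a stretch can carry more than 1 summit. Here the stretches (intervals) of the NHR-71 peak set that carry several summits are described, in first-stage (L1) larvae of the nematode Caenorhabditis elegans. They were selected on the peak calls themselves: an interval is a member when the same chromosome, start and end stand on 2 or more lines of the authors' reproducible peak list (thresholded by irreproducible discovery rate, IDR, a measure of how well replicates rank the same peaks; ce11 build). Of 8309 distinct intervals in that list, 202 are members, or 2.43% (95% Wilson interval 2.12% to 2.78%), and they account for 433 of 8540 summits. The other 8107 intervals hold one summit each. Number, spacing, width and signal of the summits come from the calls that chose the members and are given as descriptions without a test.

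The data are chromatin immunoprecipitation followed by sequencing (ChIP-seq) in 2 biological replicates of 1 group, so there is no second condition. The worms were hermaphrodite L1 larvae of strain OP480, which carries unc-119(tm4063) on chromosome III and the transgene wgIs480, and which makes NHR-71 with a GFP-FLAG tag at its C-terminal end. The worms were prepared by bleaching and starvation, and whole larvae were collected 6 h after synchronization. The precipitation used an antibody against GFP. Both replicates share the mutation and the transgene, whose promoter the labels do not state, and the control library was not analysed here. Because whole animals were used, strong binding in few cells and weak binding in many cannot be told apart, and 2 summits of an interval need not come from the same cells. The lists hold no read counts, so the depth is unknown.

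NHR-71 belongs to the nuclear hormone receptors, transcription factors that bind DNA through paired zinc fingers and of which the worm has a large, expanded family. Receptors of this class typically recognise short DNA words related to AGGTCA, and other factors bind other short words, such as the E-box CACGTG bound by basic helix-loop-helix (bHLH) proteins. A sonicated fragment spans more sequence than the bound site, so an interval is wider than the site under its summit.

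Members were divided by the spacing of their summits, close or wide, at 250 bp, a cut chosen after the values were seen. Sequences under some summits of both kinds of member are given. The interval of highest signal among all members has its summits 233 bp apart on either side of sls-2.1, a small gene for a spliced leader RNA of the SL2 type, which donates the leader joined by trans-splicing to downstream genes of operons. The interval at mdl-1, a gene for a bHLH protein related to the mammalian MAD repressors, has 5 summits in an interval of 3870 bp. The stretches shown here are from the ce11 assembly (RefSeq copy), plus strand, 5′ to 3′. Each window at mdl-1, icl-1 (an enzyme of the glyoxylate shunt, which lets worms make sugar from fat), lgg-1 (a ubiquitin-like protein of autophagosomes) and adh-1 (an alcohol dehydrogenase) is 101 bases with the summit in its middle. Capitals mark, on either strand, the nuclear receptor word AGGTCA or its variant AAGTCA, the GATA factor word TTATC, the repeat GAGAGA, the E-box CACGTG and the bZIP factor word TGACTCA; overlapping matches run together.
sls-2.1, both summits, chrII:5844796-5845079: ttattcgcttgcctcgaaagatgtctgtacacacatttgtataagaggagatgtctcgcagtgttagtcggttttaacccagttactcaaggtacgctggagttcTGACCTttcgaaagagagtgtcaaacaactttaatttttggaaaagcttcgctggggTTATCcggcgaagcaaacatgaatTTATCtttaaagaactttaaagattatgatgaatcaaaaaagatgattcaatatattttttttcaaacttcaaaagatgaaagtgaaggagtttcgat
mdl-1, summit 1, chrX:6741116-6741216: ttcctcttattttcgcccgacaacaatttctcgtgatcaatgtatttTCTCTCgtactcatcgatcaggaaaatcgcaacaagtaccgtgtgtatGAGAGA
mdl-1, summit 2, chrX:6741672-6741772: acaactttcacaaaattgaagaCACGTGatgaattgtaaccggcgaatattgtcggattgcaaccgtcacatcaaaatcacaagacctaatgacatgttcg
mdl-1, summit 3, chrX:6742207-6742307: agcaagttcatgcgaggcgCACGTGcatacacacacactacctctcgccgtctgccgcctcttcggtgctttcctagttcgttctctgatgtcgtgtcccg
mdl-1, summit 4, chrX:6743016-6743116: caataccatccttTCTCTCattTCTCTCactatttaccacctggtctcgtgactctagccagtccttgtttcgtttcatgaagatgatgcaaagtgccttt
mdl-1, summit 5, chrX:6743974-6744074: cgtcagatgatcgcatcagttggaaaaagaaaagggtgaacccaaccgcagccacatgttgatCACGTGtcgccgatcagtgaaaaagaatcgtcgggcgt
icl-1, summit 1, chrV:724115-724215: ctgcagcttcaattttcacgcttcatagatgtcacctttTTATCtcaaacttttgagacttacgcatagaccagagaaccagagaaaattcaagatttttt
icl-1, summit 3, chrV:728057-728157: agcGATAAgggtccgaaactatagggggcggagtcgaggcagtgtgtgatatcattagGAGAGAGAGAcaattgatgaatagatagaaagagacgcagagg
lgg-1, summit 2, chrII:6348540-6348640: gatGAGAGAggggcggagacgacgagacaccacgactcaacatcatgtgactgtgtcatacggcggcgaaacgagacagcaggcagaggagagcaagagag
adh-1, summit 1, chrV:11888096-11888196: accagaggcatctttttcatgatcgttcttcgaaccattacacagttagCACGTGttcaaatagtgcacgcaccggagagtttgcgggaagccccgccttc

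Most members held 2 summits. There were 183 such intervals, 12 with 3 summits, 5 with 4, 1 with 5 (at mdl-1) and 1 with 6 (at F26A3.4). Neighbouring summits within an interval lay close together: over 231 spacings the median was 205 bp, the quartiles 201 and 215.5 bp, and the range 199 to 3076 bp. Of these spacings 24 were exactly 199 bp, 150 were at most 210 bp and 189 (81.8%) were at most 250 bp. The distance of 199 bp was also the smallest between any 2 summits anywhere in the IDR list, in the pooled list and in both replicate lists.

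The spacings had a gap between 233 and 252 bp, and 250 bp was used, after the values were seen, to separate close from wide spacings. In 170 members every spacing was close. The other 32 had at least 1 wide spacing, and the 42 wide spacings had a median of 718.5 bp. Of the 19 members with 3 or more summits, 18 had a wide spacing, as did 14 of those with 2 summits.

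**Figure D1:**
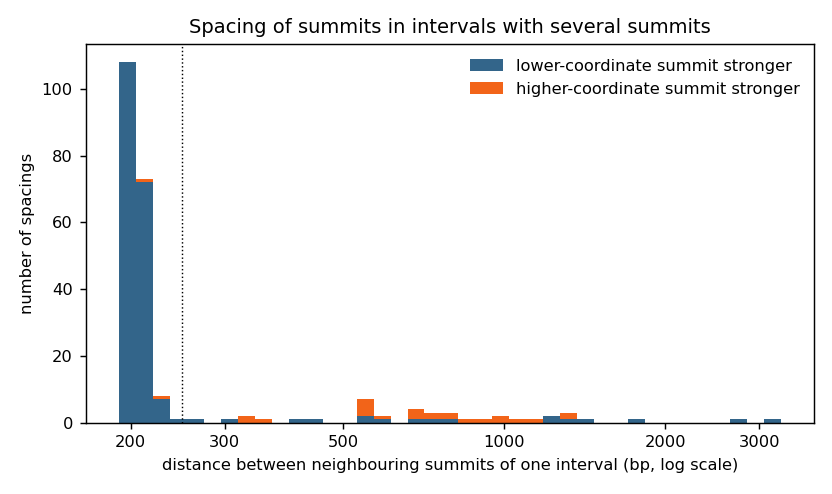
Number of spacings between neighbouring summits of 1 interval (231 spacings of 202 members) against the distance in bp on a log scale, coloured by which of the 2 summits had the higher signal; the dotted line is at 250 bp. Most spacings stand at 199 to 233 bp with the lower-coordinate summit stronger (187 of 189), whereas wide spacings are of both kinds.

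Close summits nearly always had the same order along the chromosome. In 187 of 189 close spacings (98.9%, 95% Wilson interval 96.2% to 99.7%) the summit at the lower coordinate had the higher signal. This was not peculiar to members, since among close neighbours that the list puts into different intervals the share was 229 of 232 (98.7%). Over wide spacings the order was mixed, with the lower-coordinate summit stronger in 11 of 30 spacings under 1000 bp and 7 of 12 of 1000 bp or more within members. Between neighbouring summits of different intervals that lay over 250 and under 1000 bp apart it was stronger in 384 of 802 (47.9%).

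The order followed the coordinate and not the gene. Among 2-summit members with close spacing whose summits lay in promoter windows of genes on 1 strand only, the stronger summit was the one farther upstream in 27 of 27 cases at plus-strand genes and in 0 of 28 at minus-strand genes. The replicates showed the same order in their own lists, with the lower-coordinate summit stronger in 159 of 160 close spacings within an interval in replicate 1 and in 207 of 207 in replicate 2. The ce10 version of the IDR list gave 189 of 190. Whether the peak calling sets this order and the smallest distance of 199 bp was not tested. These lists therefore do not show whether close summits are separate binding sites. That limit covers the 170 members and also close spacings inside members with a wide spacing, as at adh-1 (200 bp) and mstr-1 (199 bp).

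Close neighbours did not always share an interval. The IDR list held 421 neighbouring summits at most 250 bp apart, and 189 of them (44.9%) stood in the same interval, while 213 stood in different intervals that overlapped and 19 in intervals that did not. In the separately listed neighbours the median signal of the stronger summit was 286 and that of the weaker 117, and the median widths were 342.5 and 420 bp for the lower and higher intervals. Joining all overlapping intervals gave 427 with several summits, and counting summits at most 250 bp apart as 1 left 32. In members with close spacings only, the median signals were 666 for the strongest and 177 for the weakest summit.

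Members were wide and strong. Their median width was 624.5 bp (quartiles 522 and 808.25, range 352 to 4544), against 420 bp (quartiles 250 and 420, range 105 to 1421) for intervals with one summit, of which 42.9% were exactly 420 bp wide. An interval must span its summits, so part of this difference is built into the rule. The strongest signal in a member, in the authors' units, had a median of 689.7 (quartiles 472 and 1128, range 151 to 3648), against 189 (quartiles 121 and 354, range 84.1 to 6143) for intervals with one summit. Intervals with one summit that were at least 522 bp wide (275 of them) had a median signal of 1082, above that of the members.

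Members with a wide spacing stood apart in width. Their median width was 1600.5 bp and their median strongest signal 1103, while members with close spacings only had medians of 590.5 bp and 666. Of the 32, 20 were wider than any interval with one summit, and no member with close spacings only was. The weakest summit of a member reached a median of 27.8% of the strongest (quartiles 17.5% and 42.5%, range 4.77% to 93.8%).

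**Figure D2:**
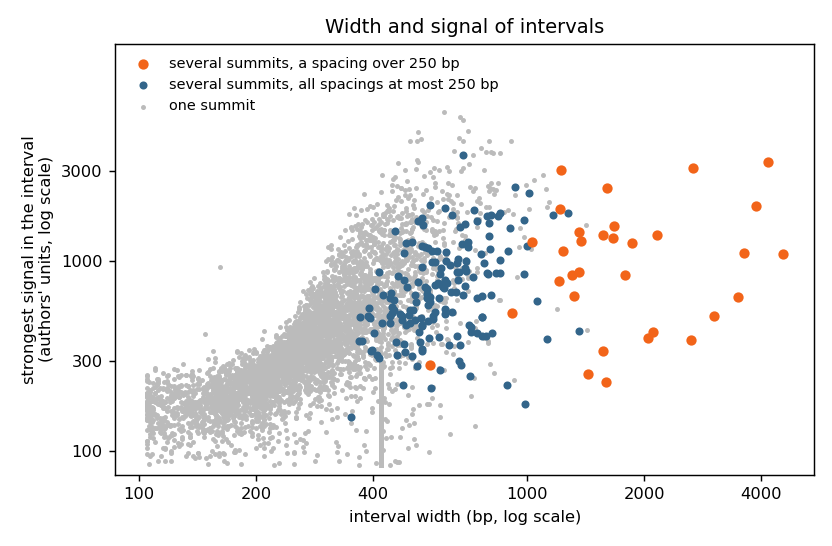
Strongest signal of each interval in the authors' units against its width in bp, both on log scales, for the 32 members with a spacing over 250 bp, the 170 members with close spacings only and the 8107 intervals with one summit. Widths above 1421 bp are reached only by 20 members with a wide spacing, and the highest signals (up to 6143) belong to intervals with one summit.

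The lowest signal of the IDR list, 84.1, decides which second summits are seen. Just inside, the lowest second-strongest signal of a member was 84.7, and 21 members had a second summit under 100. Just outside, 100 intervals with one summit held 2 or more summits in the longer pooled list, with a second signal of at most 83.8. These 100 had a median strongest signal of 537 and a median width of 498.5 bp. In the pooled list 13 members held further summits.

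Both replicates showed several summits in most members. In the whole list of replicate 1, 189 of 202 members (93.6%, 95% Wilson interval 89.3% to 96.2%) held 2 or more summits, and in that of replicate 2, 187 of 202 (92.6%, 88.1% to 95.4%). Both did so in 174 members (86.1%) and neither in 0 of 202. All 32 members with a wide spacing did so in both. Among intervals with one summit the shares were 11.2% in replicate 1 and 12.2% in replicate 2, and over all IDR intervals they were 13.2% and 14.1%. Among intervals with one summit at least 522 bp wide they were higher, 28.0% (77 of 275) in replicate 1 and 34.2% (94 of 275) in replicate 2. The replicates' reads are also in the pooled list, so these values are no independent check.

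A replicate's own list drew fewer such intervals. Cut to the length of the IDR list, the replicate 1 list held 125 intervals with several summits, of which 89 overlapped a member (71.2%), and these covered 86 members (42.6%). The replicate 2 list held 156, of which 108 overlapped a member (69.2%), covering 104 members (51.5%). Their median spacings were 204 and 203 bp.

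The strongest summit of a member was nearly always the same in both replicates. Every summit of 169 members had a counterpart within 100 bp in both replicate lists, and the strongest summit was the same in 166 (98.2%, 95% Wilson interval 94.9% to 99.4%). It was the same in 143 of 143 members with close spacings and in 23 of 26 with a wide spacing. For close spacings this adds nothing to the order along the chromosome, since each replicate list by itself had the lower-coordinate summit stronger in nearly all of them, so the 26 members with a wide spacing are the ones that bear on agreement. Over 157 members with 2 matched summits, the log2 ratio of the lower-coordinate to the higher-coordinate summit had the same sign in both replicates in 156, which for close spacings restates that order, and its Spearman's rho between replicates across intervals was 0.578, a description since intervals share their libraries. The ratio differed between replicates by a median of 0.56 on the log2 scale. Of the weaker summits, 93.5% (216 of 231) had a counterpart in each replicate, against 98.0% (198 of 202) and 100% (202 of 202) of the strongest.

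**Figure D3:**
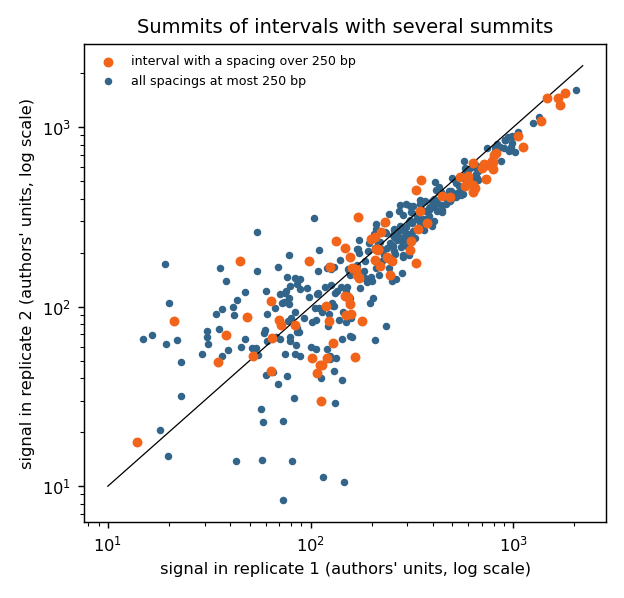
Signal of member summits in replicate 2 against replicate 1, in the authors' units on log scales, for summits with a counterpart within 100 bp in both lists; the line marks equal values. Strong summits lie close to the line, and the scatter widens at low signal.

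Members reached promoters about as often as other intervals, and those with a wide spacing more often overlapped a gene start. Promoter windows, here 1000 bp upstream to 200 bp downstream of protein-coding gene starts, held a summit of 87 of 202 members (43.1%, 95% Wilson interval 36.4% to 49.96%), against 41.8% (40.7% to 42.9%) of intervals with one summit and 33.5% (28.1% to 39.2%) of those at least 522 bp wide. With windows from 500 bp upstream the order turned, at 30.2% of members and 33.8% of intervals with one summit, as it did from 2000 bp upstream, at 51.0% and 54.7%. The interval overlapped a gene start in 15 of 32 members with a wide spacing (46.9%, 30.9% to 63.6%) and in 28 of 170 with close spacings only (16.5%, 11.6% to 22.8%), against 16.5% (15.7% to 17.3%) of intervals with one summit. Among intervals with one summit at least 522 bp wide it was 40 of 275 (14.5%, 10.9% to 19.2%). Members with a wide spacing were wider still, with a median of 1600.5 bp against 608 bp. The shares were not corrected for width, and whether width accounts for the difference was not tested. Per summit, promoter windows held 37.4% (33.0% to 42.1%) of member summits, against 41.8% for intervals with one summit, which is the opposite direction to the share per interval, where a member has 2 or more summits that can fall in a window. Coding exons held 2.31% and introns 28.4% of member summits, against 1.86% and 23.7% for intervals with one summit. Both kinds of member had similar places per summit: promoter windows held 35.9% of summits in members with a wide spacing and 37.8% in those with close spacings only, and introns 30.4% and 27.9%. Exons of untranslated or non-coding sequence held 5.08% (3.38% to 7.57%) of member summits, against 2.32% (2.01% to 2.67%).

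Some members took in a whole gene. A complete protein-coding gene lay within 10 of 202 members (4.95%, 2.71% to 8.87%), and 8 of these had a wide spacing. Among intervals with one summit this was so for 15 of 8107 (0.185%, 0.112% to 0.305%). For those at least 522 bp wide it was 1 of 275 (0.364%), and for members with close spacings only 2 of 170 (1.18%). An interval must be at least as wide as a gene to hold it, and the shares were not corrected for width. At 5 genes (mdl-1, adh-1, icl-1, F26A3.4 and mxl-3) summits lay beyond both ends of the gene as well as inside it.

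**Figure D4:**
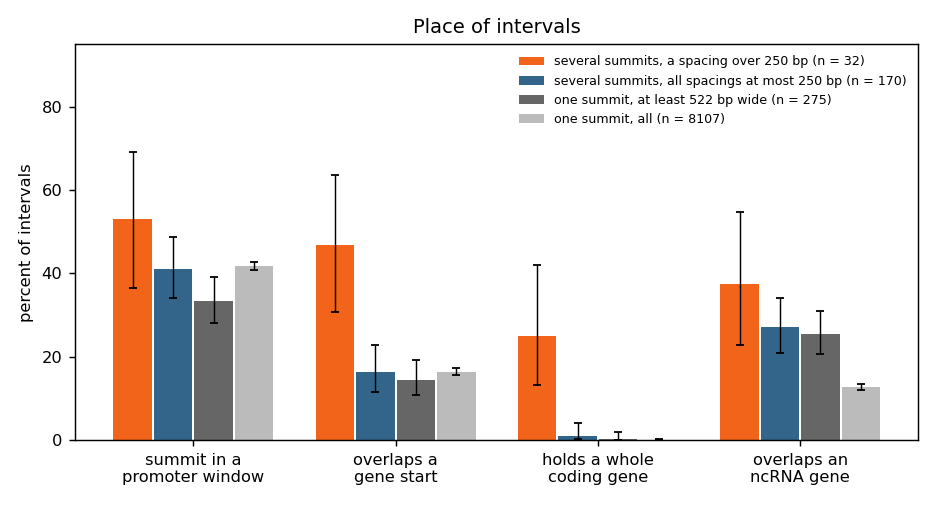
Percent of intervals with a summit in a promoter window, overlapping a protein-coding gene start, holding a whole protein-coding gene and overlapping an annotated ncRNA gene, for members with a spacing over 250 bp (n = 32), members with close spacings only (n = 170), intervals with one summit at least 522 bp wide (n = 275) and all intervals with one summit (n = 8107); bars are shares and lines their 95% Wilson intervals. Members with a wide spacing reach 46.9% for gene starts, and 8 of 32 hold a whole gene.

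Members with a wide spacing are described next by gene, as a class chosen after the values were seen, and the order of the genes says nothing of how often a function occurs among them. The 5 summits at mdl-1 (chromosome X, 6740560 to 6744429, 3870 bp wide) had signals of 1062, 186, 1066, 1431 and 1953 along the chromosome. In replicate 1 they had 632, 165, 545, 794 and 1060, and in replicate 2 they had 435, 52.5, 527, 640 and 898. Of the 5, 3 lay upstream of the start, the nearest 94 bp from it, 1 in an intron and 1 beyond the gene's end, where the signal was highest in both replicates. As the sequences show, CACGTG stood within 50 bases of summits 2, 3 and 5 and GAGAGA near summits 1 and 4. At mxl-3 (chromosome X, 13349263 to 13351301), for a MAX-like bHLH protein, the 3 signals were 394, 145 and 380. The replicates differed in their order there: replicate 1 had 246, 107 and 98.3, and replicate 2 had 150, 42.6 and 180.

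An intron of hlh-30, the worm counterpart of the lysosome and autophagy regulator TFEB, held summits of 532 and 414, 445 bp apart on chromosome IV, with 314 and 134 in replicate 1 and 232 and 233 in replicate 2. Upstream of nhr-3, a nuclear hormone receptor gene on chromosome X, summits of 1264 and 149 lay 951 and 344 bp from the start, with 634 and 112 in replicate 1 and 629 and 47.0 in replicate 2. Signals of the replicates come from lists that were called separately.

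The widest member (chromosome V, 723877 to 728420, 4544 bp) ran across icl-1 and had signals of 508, 192 and 1097. The strongest summit lay 103 bp upstream of icl-1 and had 599 in replicate 1 and 501 in replicate 2. The first, beyond the end of icl-1 and in the promoter window of fbxb-72, a gene for an F-box protein, had 332 in replicate 1 and 176 in replicate 2. The replicate lists held 9 summits each in this interval. At adh-1 (chromosome V, 11887868 to 11890029) the signals were 1375, 282 and 203, the first 102 bp upstream of the start with 753 in replicate 1 and 619 in replicate 2, and the last in a coding exon of the neighbouring gene sodh-2.

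The interval on chromosome X from 3114610 to 3116713 held all of mai-1, a homolog of the mitochondrial ATPase inhibitor, with a summit of 310 near its start and one of 425 that lay 537 bp upstream of gpd-2, a glyceraldehyde-3-phosphate dehydrogenase. The gpd-2 summit had 215 in replicate 1 and 210 in replicate 2. On chromosome II a summit of 513 lay 635 bp upstream of pmp-2, a peroxisomal membrane transporter in an interval (6888142 to 6891168) that held all of acer-1. A second member lay next to it (6891085 to 6892317), with a signal of 413 upstream of acer-1 and one of 1128 in an exon of adal-1. At lgg-1 (chromosome II, 6347487 to 6348847) both summits were upstream of the start, 166 bp away with a signal of 415 and 871 bp away with 1427. The farther summit was the stronger in both replicates, with 782 in replicate 1 and 645 in replicate 2.

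The largest spacing, 3076 bp, was at W06H8.6 (chromosome V, 6224013 to 6228176). One summit of 3354 lay in an intron and one of 2924 lay 741 bp upstream of the start. Replicate 1 had 1796 and 1465, and replicate 2 had 1560 and 1460, so the summits were of nearly equal height. The replicate 1 list held 5 summits in this interval and the replicate 2 list 7. A second member lay next to it (6228210 to 6229988) with signals of 413, 109 and 850. On chromosome X the intergenic member from 16929385 to 16932048, whose nearest start was that of C30E1.4, had 3095 and 392, 1783 bp apart. There the replicate 1 list held 5 summits and the replicate 2 list 4. Also on X, 2 members in introns of ZK470.2 carried 3 summits each, with signals of 1882, 199 and 449 in one and 660, 344 and 105 in the other, and a member in introns of abts-4, which encodes an anion transporter, carried 4.

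At mstr-1 (chromosome I, 7080608 to 7084210) 4 summits had signals of 144, 95.3, 1108 and 1044, and the stronger ones lay 254 and 1013 bp upstream of the start. The member with 6 summits (chromosome I, 7656577 to 7660062) held all of F26A3.4 and reached the promoter of ego-1, an RNA-directed RNA polymerase of germline RNA interference. Its signals were 425, 203, 93.2, 647, 91.6 and 260. Near T26A8.4 and pdtf-1 on chromosome IV 4 signals were 471, 294, 234.98 and 1325, the highest 62 bp upstream of T26A8.4. In the promoters of mig-38 and F40F11.3, also on chromosome IV, 845 was the highest of 3, with 349 in replicate 1 and 506 in replicate 2.

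**Figure D5:**
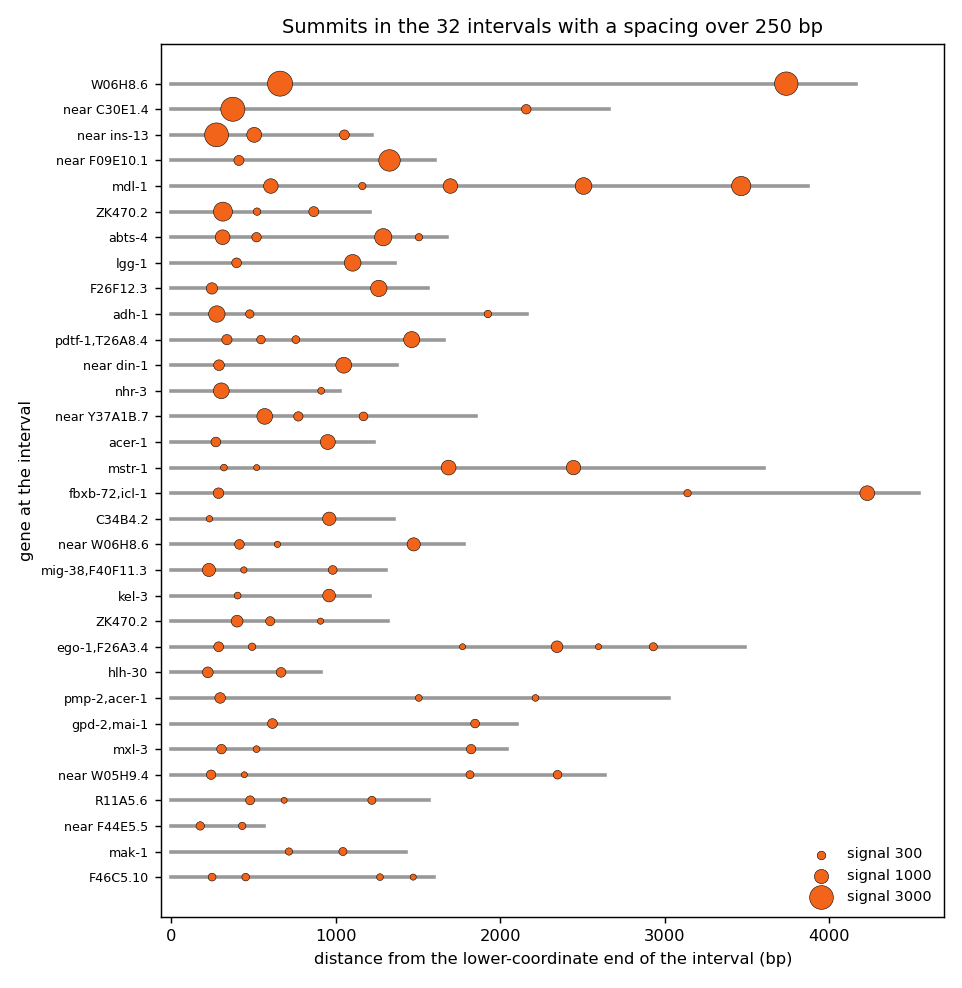
Summits of the 32 members with a spacing over 250 bp, ordered from the highest strongest signal, by distance in bp from the lower-coordinate end of the interval; grey lines are the intervals and circle area grows with signal in the authors' units. Names are genes with a summit in their promoter window, else the gene whose body holds the strongest summit, else the nearest start. The longest interval, at icl-1, is 4544 bp and the largest spacing, at W06H8.6, 3076 bp.

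Among the members of highest signal several flanked genes for small RNAs. At sls-2.1 the signals were 3648 and 514, with 2042 and 273 in replicate 1 and 1620 and 342 in replicate 2. The member over sls-2.2 and sls-2.3 (chromosome II, 5543286 to 5544507) had 3037, 1120 and 425, and the one over sls-2.8 (chromosome III, 12250233 to 12250794) had 1992 and 95.05. In all of these the strongest summit lay outside the RNA gene, 44 bp from sls-2.1, 36 bp from sls-2.2 and 22 bp from sls-2.8.

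Genes annotated as small nuclear RNA, the class that holds the SL2 genes, overlapped 8 of 202 members (3.96%, 95% Wilson interval 2.02% to 7.62%), 4 of 275 intervals with one summit at least 522 bp wide (1.45%) and 27 of 8107 intervals with one summit (0.333%, 0.229% to 0.484%). For small nucleolar RNA genes, which guide chemical modification of other RNAs, the counts were 8 of 202 (3.96%), 3 of 275 (1.09%) and 104 of 8107 (1.28%). Transfer RNA genes overlapped 3 members (1.49%, 0.506% to 4.27%), 2 of 275 intervals with one summit at least 522 bp wide (0.727%) and 259 of 8107 intervals with one summit (3.19%), so the direction turned with the width of the intervals set beside them. For unclassified ncRNA genes the share was 28.7% in members and 12.7% in intervals with one summit, and 25.5% in those of at least 522 bp. No test was made, and members that overlap one another share sequence.

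Strong summits also lay in members over other non-coding genes. In the member that holds tts-1, a long non-coding RNA gene on chromosome X, the signals were 450 and 2438. The stronger summit had 1365 in replicate 1 and 1084 in replicate 2. In the member over the microRNA gene cel-mir-52 on chromosome IV they were 1256, 376 and 314. No summit lay in that gene, and the nearest, 118 bp away, was the weakest. A tRNA gene on chromosome X lay 29 bp from the weaker summit of the member from 8036025 to 8036954, which had 2481 and 680. The weaker one there had 104 in replicate 1 and 311 in replicate 2, while the stronger had 1344 and 1142.

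Other members of highest signal mostly lay at protein-coding genes. At hlh-11, another bHLH gene, close summits of 1798 and 561 lay 413 and 203 bp upstream of the start. At ftt-2, which encodes a 14-3-3 protein, 1764 and 636 lay 676 and 882 bp upstream, and at snr-4, a core protein of spliceosomal particles, 1749 and 860 lay 347 and 558 bp upstream. All of these pairs had the lower coordinate stronger, although hlh-11 is on the plus strand and ftt-2 and snr-4 are on the minus strand. Further close summits lay at nspc-17 (2307 and 139), ppm-2 (1901 and 222), F55H12.7 (1741 and 1032) and in introns of ppfr-1 (1808 and 920). An intergenic member on chromosome III (13062256 to 13062982), 7197 bp upstream of F54F12.1, had 1857 and 325. Its weaker summit had no counterpart in replicate 2. With exactly 199 bp between them, summits of 1627 and 547 stood between F29B9.11 and jmjd-1.2 and summits of 1636 and 329 near F48C1.3.

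Of 4152 protein-coding genes with a summit in their promoter window, 112 (2.7%) had one that belonged to a member, and gene lists were read against that share. In the list for the citric acid cycle and glyoxylate shunt 3 of 22 genes with a promoter summit did so (13.6%, 95% Wilson interval 4.75% to 33.3%), namely icl-1, cts-1 for citrate synthase and mdh-1 for malate dehydrogenase. At cts-1 summits of 832 and 780 lay 199 bp apart, and the stronger had no counterpart in replicate 1. The replicate 1 list held 1 summit in the interval at cts-1 and 1 in that at mdh-1. The replicate 2 list held 2 in each. In the list for the methionine cycle and propionate breakdown it was 3 of 20 (5.24% to 36.0%): alh-8, nhr-114 and ahcy-1. The intervals are wide, and no test was made.

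The other lists gave few genes. Aminoacyl-tRNA synthetases had 2 of 16 (mars-1 and kars-1), body wall muscle genes 2 of 25 (act-1 and act-4, both for actin), and nuclear hormone receptors 2 of 70 (nhr-3 and nhr-114). Cytosolic ribosomal protein genes had 1 of 71, which was rpl-1. Mitochondrial ribosomal proteins had 0 of 35 (upper 95% bound 9.89%), heat shock and J proteins 0 of 31 (11.0%), cell cycle and DNA replication genes 0 of 42 (8.38%) and cuticle collagens 0 of 28 (12.1%). nhr-71 itself had a promoter summit, in an interval with one summit, and unc-119 had none.

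Sequence was compared between the strongest and the other summits of members. In windows of 101 bases the median GC content was 47.0% at the strongest summit of a member and 40.6% at its other summits, against 42.6% for intervals with one summit and 34.7% for windows spaced every 1000 bp along the genome. In wide intervals with one summit it was 47.5%. GAGAGA was in 29.7% (23.8% to 36.3%) of windows at strongest summits and 19.9% (15.3% to 25.5%) at the others, against 24.9% for intervals with one summit, 36.7% for wide ones and 5.12% of genome windows. CACGTG was in 13.0% (7.62% to 21.4%) of windows in members with a wide spacing and 5.28% in those with close spacings only, against 6.30% for intervals with one summit, 13.5% for wide ones and 1.69% of genome windows. Between strongest and other summits CACGTG was in 7.43% and 6.49% of windows. AGGTCA was in 3.96% (2.02% to 7.62%) of windows at strongest summits and 2.16% at the others. For intervals with one summit it was 3.84%, for wide ones 1.82% and for genome windows 2.39%. Its variant AAGTCA was in 3.47% and 3.896%, against 4.44% for intervals with one summit, 2.91% for wide ones and 4.82% of genome windows. TTATC was in 16.3% (11.9% to 22.1%) of windows at strongest summits and 23.4% (18.4% to 29.2%) at the others. For intervals with one summit it was 22.4%, for wide ones 20.4% and for genome windows 21.3%. These are shares of windows holding the letters, on either strand, and neighbouring windows of 1 interval are not independent.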

How the data were processed

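ChIP-seq peak lists of 2 biological replicates in 1 group were used. The authors deposited a signal and a -log10 (q) value per summit for ce11 and ce10: 1 list of 30000 positions per replicate, 1 pooled list and 1 IDR list, per the submitters' file list made from alignments with a control. For the aligner, caller, IDR threshold and signal scale, the entry is: not given in the sources used here; -log10 (q) was constant in the IDR list and not used. The IDR list equals the 8540 strongest pooled lines. Read depth is unknown, so intervals cover counting of intervals or genes only.

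Lines with equal chromosome, start and end were grouped, and a summit is the start plus its offset. Coordinates are ce11, 1-based. Genes came from Ensembl release 115 and sequence from RefSeq. Shares have 95% Wilson intervals, replicate summits were matched within 100 bp, and overlap meant at least 1 bp. Grouping, spacing and promoter assignment were tested on simulated data. Scripts ran in Python 3.11.15 (pandas 2.3.3, NumPy 2.4.6, SciPy 1.17.1; figures in Matplotlib 3.10.9). Members, gene lists and words were chosen with earlier results of these data known. Intervals named were the 10 strongest with 3 or more summits, the 12 strongest others, the 4 widest, those with extreme spacings, and at most 4 genes per list; other intervals with a wide spacing were named after their values were seen. Chemoreceptor genes are not reported here.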

Additional observations from a re-analysis of the deposited data

How the results depend on the processing

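Counting of members depended on how lines are grouped, and the causes were not tested. Median signal in this paragraph is over all summits of members, and was 376 in the main list. Signals with a replicate left out are those of the other replicate's own list, so they are not compared with 376. Taking the 4270 IDR lines of higher signal gave 102 members, median spacing 206 bp, median width 735 bp, median signal 476, promoter share 52.0%, gene start share 30.4% and replicate 2 share 96.1%. The ce10 list gave a median spacing of 204 bp with 206 members. The whole pooled list gave 302 members, median width 571 bp and median signal 312. Leaving out a replicate gave 125 to 156 members, spacings of 203 to 204 bp, widths of 570.0 to 599 bp, signals of 229 to 251, promoter shares of 39.1% to 43.2%, coding exon shares of 1.87% to 3.82% and gene start shares of 16.0% to 18.4%. Joining overlapping intervals gave 427 members, a median spacing of 204 bp and a median width of 572 bp. Chosen after seeing the data, counting summits at most 250 bp apart as 1 left 32 members, with median spacing 752 bp and width 1600.5 bp, or with joining as well 50 members, 698 bp and 1337.5 bp. Members with a wide spacing alone, also chosen after seeing the data, gave shares of 53.1% for promoters and 46.9% for gene starts. Promoter windows from 500 bp upstream gave 30.2% (one-summit intervals 33.8%), and from 2000 bp upstream 51.0% (54.7%), so the members' share was the lower one in both. With replicate lists cut to the IDR length, 79.2% (replicate 1) and 81.7% (replicate 2) of members held 2 or more summits. Matching within 50 bp gave the same strongest summit in 100% of 152 members. Counting summits closer than 100 bp as 1 changed nothing, since none were. No paired analysis was possible because there is 1 group.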

Other observations

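Members lay near each other in places. Of 202 members, 56 were within 10000 bp of another and formed 24 groups. The same count was not made for intervals with one summit, so nearness is not shown to be particular to members. Some grouped members adjoin or overlap, as at W06H8.6 and acer-1. The group with the most summits ran from 6736325 to 6750672 on chromosome X, across mdl-1 and into abts-4, and held 4 members with 13 summits. A group on chromosome II from 10541941 to 10559444 held 4 members with 8 summits. By chromosome, members made up 3.16% of intervals on I (39), 3.07% on II (40), 2.09% on III (27), 2.02% on IV (25), 2.06% on V (29) and 2.29% on X (42), and the 95% Wilson intervals of all 6 chromosomes overlapped.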
